A study of Homo sapiens with 10 samples.

Results

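The genes of the TGF-beta and BMP system were examined in PANC-1, an established human pancreatic ductal adenocarcinoma (PDAC) cell line, after silencing of PAR1. The set was chosen by name, with earlier results of these data known. It held 46 genes for ligands, latency proteins, antagonists, receptors, SMADs, their ligases and corepressors, and the ID genes. Of these, 43 were listed by symbol among 27884 genes in the expression values, and 42 passed the minimum of a normalized count of 10 in at least 5 libraries. BMP2, BMP4 and FST were not among the listed genes and were not analysed here. The type I receptor gene BMPR1B was listed with 0 to 6 counts per library and was not tested.

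PAR1 is a thrombin receptor encoded by F2R. The 5 shPAR1 libraries came from cells that received a lentiviral hairpin against F2R, and the 5 shCtrl libraries from cells that received a control hairpin. Both groups were selected with 2 µg/ml puromycin and grown in DMEM with 10% FCS. A single hairpin clone was used in each group, so that an effect of PAR1 loss and an effect of the hairpin itself cannot be told apart. The labels number the libraries 1 to 5 (shPAR1) and 6 to 10 (shCtrl) but do not say whether they were separately transduced or grown cultures, and the p-values therefore measure the spread between these libraries, which may be technical.

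TGF-beta, activin and BMP ligands are secreted dimers that bring type II and type I receptor kinases together on the cell surface. The type I kinase phosphorylates receptor SMADs, which join SMAD4 and enter the nucleus to act on transcription. TGF-beta and activin receptors use SMAD2 and SMAD3, and BMP receptors use SMAD1, SMAD5 and SMAD9, with the ID genes as widely used readouts of the BMP branch. In PDAC the pathway is known for frequent loss of SMAD4 in tumors, and TGF-beta can both arrest epithelial cells and drive their epithelial-to-mesenchymal transition.

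The targeted gene was read first. F2R had a log2 level, that is log2(normalized count + 1), of 10.20, 10.24, 10.32, 10.18 and 10.21 in the shPAR1 libraries and of 11.81, 11.75, 11.75, 11.80 and 11.82 in the shCtrl libraries. The groups did not overlap, and the mean normalized count was 66.0% lower in shPAR1 cells (log2 fold change -1.56, SE 0.040, adjusted p = 7.69e-15, limma). The libraries held 15335264 to 25369056 counts. Summed TPM (counts divided by exon length and scaled to the same total in each library) of 7 ductal epithelial markers was 1588 to 1752 in shPAR1 and 2213 to 2823 in shCtrl libraries, although KRT7, one of them, had a mean of only 0.562 and 0.776 TPM, and CDH1 (log2 fold change 1.04) and MUC1 (0.43) were higher in shPAR1 cells. The 3 listed of 5 fibroblast markers summed to 119 to 153 TPM in shPAR1 and 81.9 to 109 TPM in shCtrl libraries. Of these, COL3A1 had a mean of 70.6 TPM in shPAR1 and 1.86 TPM in shCtrl libraries. PDGFRB was at 2.23 and 1.76 TPM, whereas COL1A1 was lower in shPAR1, at 66.8 and 92.5 TPM. Over all libraries, the 3 listed of 5 macrophage markers summed to 1.24 to 2.73 TPM and the 3 listed of 4 endothelial markers to 0.0967 to 0.286 TPM. The share of counts from mitochondrially encoded genes was 7.37 to 9.08% after PAR1 silencing and 5.71 to 7.07% in controls. The part of these shifts in the results was not tested. Size factors without mitochondrial genes left the call of all 42 tested genes as it was. Such a factor is a median over genes and hardly depends on these few, so this cannot decide the question.

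Between the shPAR1 and shCtrl libraries, 26 of the 42 tested genes differed, 12 higher and 14 lower in shPAR1. Calls were made by limma with a threshold of 0.05 on the p adjusted by Benjamini-Hochberg over 17518 genes. Over all tested genes, 40.9% were called, 19% as higher and 21.9% as lower. The groups did not overlap for 22 of the 42 genes, and for 5118 of the 17518 genes. The counts of called, higher and non-overlapping genes include INHBA, which was tested because of its level in the shPAR1 libraries. The median absolute log2 fold change was 0.30 over the tested TGF-beta and BMP genes and 0.20 over all tested genes. By role, receptors and co-receptors were higher for 6 of 10 and lower for 0, while the receptor SMADs were lower for 3 of 5, the SMAD ligases and corepressors for 3 of 5, and the ID genes for 3 of 4, with 0 higher in these last 3 roles. Since these are bulk libraries, fewer cells that express a gene and less RNA per cell cannot be told apart.

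**Figure D1:**
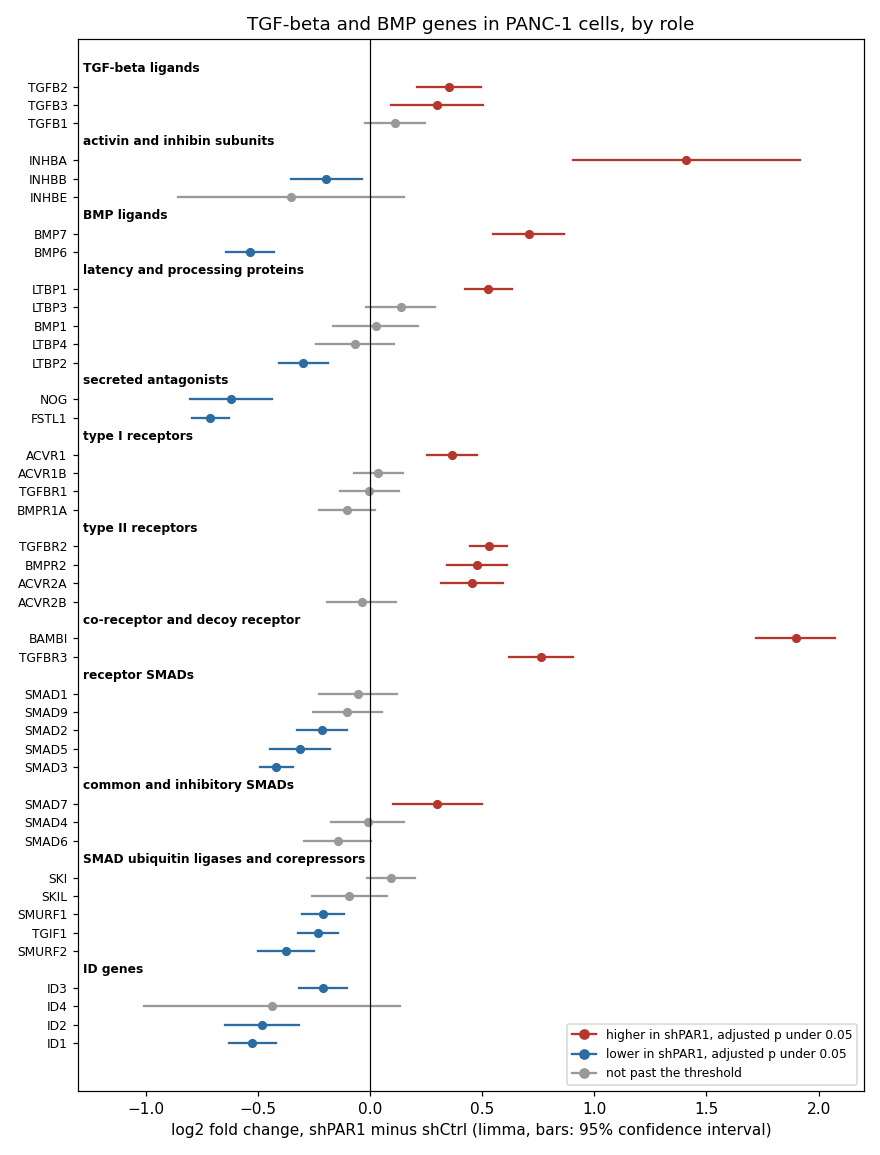
Log2 fold changes (x axis, shPAR1 minus shCtrl) of the 42 tested genes, grouped by role on the y axis, with 95% confidence intervals from limma as bars. BAMBI lies furthest to the right at 1.90. The 6 called receptor genes, with the co-receptor TGFBR3 and the decoy receptor BAMBI among them, lie right of 0. The called receptor SMADs, ligases, corepressors and ID genes lie left of 0.

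Before the comparison, the levels show which members had the most RNA per exon length in these cells. As a mean over the 10 libraries of both groups, ID1 stood highest at 330 TPM, followed by ID3 at 185 TPM, SMAD3 at 170 TPM, LTBP2 at 127 TPM and TGFB1 at 77.2 TPM. SKI at 71.0, TGIF1 at 65.2, TGFBR2 at 65.1 and BMPR2 at 63.9 TPM followed so closely that their libraries overlapped. The lowest tested members were ACVR2B at 2.11, INHBE at 1.01, ID4 at 0.759 and INHBA at 0.361 TPM, and BMPR1B was at 0.0877 TPM. Within families, 1 member often held most of the level per length: TGFB1 made up 82.2 ± 0.90% (SD, n = 5) of the summed TPM of the 3 TGF-beta ligands in shPAR1 and 84.3 ± 0.83% in shCtrl libraries, and SMAD3 made up 71.7 ± 2.2% and 73.9 ± 1.1% of that of the 5 receptor SMADs. These levels rest on the union of all annotated exons of a gene. That union is 36426 bases for SMAD2 and 10011 for SMAD3, with mean normalized counts of 1389 and 10167. The share of SMAD3 therefore depends on the lengths taken. The canonical transcript length used next put SMAD2 at 4.51 TPM in place of 6.39, and so does not remove this dependence. With the length of the canonical transcript, a choice made after seeing the data, the order changed: TGIF1 at 112 TPM stood above LTBP2 at 91.4 TPM, TGFBR2 at 66.2 TPM stood above TGFB1 at 60.8 TPM, and ID3 at 195 TPM and SMAD3 at 177 TPM followed ID1 at 277 TPM, while the share of TGFB1 was 81.4 and 83.6% and that of SMAD3 74.8 and 76.9%.

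**Figure D2:**
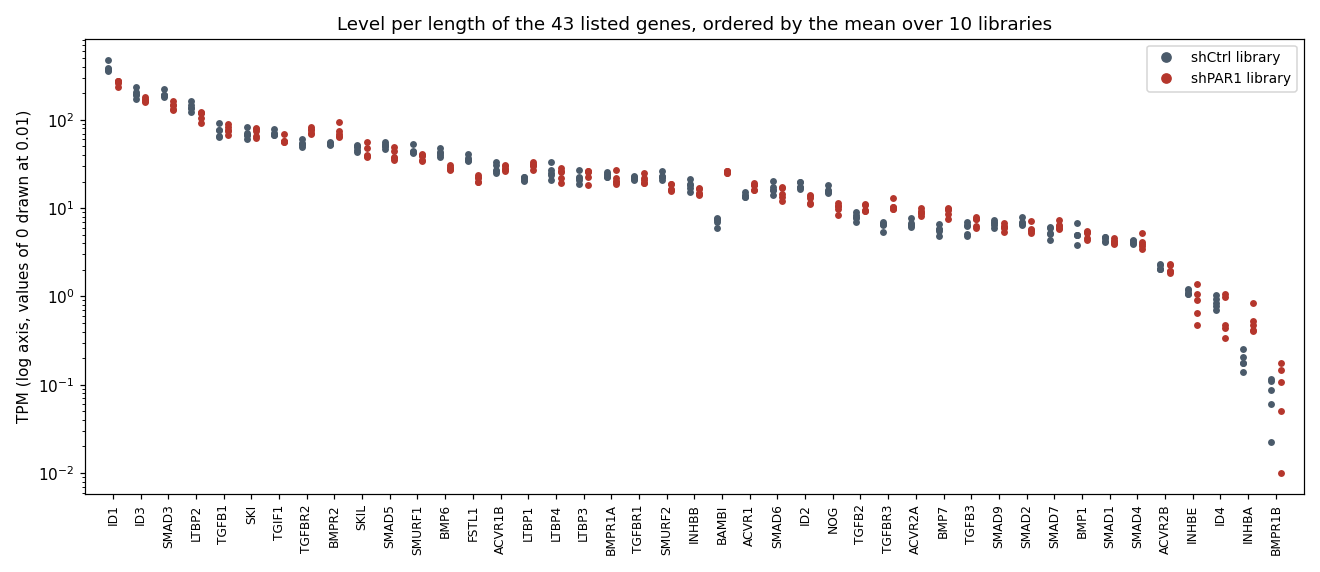
Level per length (y axis, TPM on a log axis) of the 43 listed genes in each of 10 libraries, ordered along the x axis by the mean over libraries. ID1 is at the top and BMPR1B at the bottom, and BAMBI shows the widest gap between the groups among genes above 1 TPM, with means of 25.9 TPM in shPAR1 and 7.11 TPM in shCtrl libraries.

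Among the TGF-beta ligands, the minor isoforms TGFB2 and TGFB3 were higher in shPAR1 cells and the major isoform was not called. TGFB2 had log2 levels of 8.50, 8.65, 8.40, 8.56 and 8.48 in shPAR1 and of 8.25, 8.17, 7.99, 8.19 and 8.23 in shCtrl libraries. Every shPAR1 library lay above every shCtrl library, by a mean log2 fold change of 0.35 (SE 0.068, adjusted p = 0.000415). TGFB3 rose by a log2 fold change of 0.30 (SE 0.097, adjusted p = 0.0196) with groups that overlapped, and this call was lost without shPAR1 library 4 (0.23, adjusted p = 0.067), shCtrl library 6 (0.26, adjusted p = 0.054) or shCtrl library 7 (0.25, adjusted p = 0.061). TGFB1 had a log2 fold change of 0.11 (95% interval -0.02 to 0.25, adjusted p = 0.178). TGFB2 shares 11.6% and TGFB1 6.59% of its exon bases with a gene on the opposite strand (TGFB2-AS1 and HNRNPUL1). Whether reads were counted by strand was not stated, and reads of such a pair may therefore not have been separated. Among other called members, BMP6 shares 5.60% (with TXNDC5), and TGFB3, INHBA, LTBP2, FSTL1 and SMURF2 share 2.28 to 3.36%.

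Activin and inhibin subunit genes were expressed at low levels, apart from INHBB. INHBA, whose product forms activin A, had log2 levels of 4.62, 4.64, 4.42, 4.55 and 5.50 in shPAR1 and of 3.05, 3.77, 3.27, 3.33 and 3.27 in shCtrl libraries. The groups did not overlap, and the mean normalized counts were 26.9 and 9.24 (log2 fold change 1.41, SE 0.24, adjusted p = 0.000121). INHBA passed the minimum count through the shPAR1 libraries, since 1 shCtrl library alone reached it, and so a difference was a condition of its being tested. INHBB, the subunit of activin B, was lower by a small margin (log2 fold change -0.20, SE 0.075, adjusted p = 0.0458), and this call was lost without shPAR1 library 1, 4 or 5, without shCtrl library 7, 8, 9 or 10 (adjusted p from 0.053 to 0.117), or without the count minimum (adjusted p = 0.059). INHBE, a liver-associated subunit gene, had a log2 fold change of -0.35 with a wide 95% interval of -0.86 to 0.15 (adjusted p = 0.261).

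The 2 tested BMP ligand genes of the set, BMP6 and BMP7, moved in opposite directions. BMP6 had log2 levels of 9.23, 9.45, 9.31, 9.38 and 9.38 in shPAR1 and of 9.85, 9.84, 9.93, 9.91 and 9.89 in shCtrl libraries. BMP7 had log2 levels of 8.18, 8.30, 8.39, 8.07 and 8.22 in shPAR1 and of 7.38, 7.52, 7.56, 7.60 and 7.55 in shCtrl libraries. Neither gene's groups overlapped. BMP6 fell by 31.0% in mean normalized count (log2 fold change -0.54, SE 0.050, adjusted p = 1.23e-07) and BMP7 rose by 63.8% (log2 fold change 0.71, SE 0.075, adjusted p = 5.37e-07). Both ligands signal through BMP type I and type II receptors. In TPM, BMP6 was at 28.4 ± 1.5 in shPAR1 and 42.4 ± 3.7 in shCtrl libraries (SD, n = 5) and BMP7 at 9.14 ± 1.1 and 5.74 ± 0.68, so BMP6 remained the higher of the pair in both groups.

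Latent TGF-beta binding proteins tether the inactive ligand complex to the matrix, and here LTBP1 and LTBP2 went opposite ways. LTBP1 had log2 levels of 10.38, 10.44, 10.44, 10.48 and 10.29 in shPAR1 and of 9.90, 9.93, 9.96, 9.77 and 9.84 in shCtrl libraries. All shPAR1 libraries were above all shCtrl libraries (log2 fold change 0.53, SE 0.050, adjusted p = 1.44e-07). LTBP2, a family member known as an elastic fiber protein that does not bind latent TGF-beta, had log2 levels of 12.57, 12.69, 12.67, 12.61 and 12.40 in shPAR1 and of 12.81, 12.88, 12.95, 12.96 and 12.83 in shCtrl libraries. It was lower without overlap (log2 fold change -0.30, SE 0.052, adjusted p = 0.000160). LTBP1 made up 16.0 ± 0.73% of the summed TPM of the 4 LTBP genes in shPAR1 and 10.3 ± 0.77% in shCtrl libraries, and LTBP2 58.8 ± 0.37% and 66.9 ± 0.41% (SD, n = 5). LTBP3 (log2 fold change 0.14, 95% interval -0.02 to 0.29), LTBP4 (-0.07, -0.24 to 0.11) and BMP1, a protease that cleaves matrix proteins and the BMP antagonist chordin (0.03, -0.16 to 0.22), were not called. LTBP3 passed the threshold without shPAR1 library 5 (log2 fold change 0.21, adjusted p = 0.0067) and with voom weights (0.17, adjusted p = 0.033).

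Both tested secreted antagonists were lower in shPAR1 cells. FSTL1, a follistatin-like glycoprotein that modulates BMP signaling, had log2 levels of 10.25, 10.33, 10.29, 10.24 and 10.23 in shPAR1 and of 11.00, 10.95, 10.96, 10.99 and 11.01 in shCtrl libraries. NOG, which encodes the BMP trap noggin, had log2 levels of 6.90, 6.94, 6.85, 7.06 and 6.68 in shPAR1 and of 7.61, 7.51, 7.42, 7.55 and 7.43 in shCtrl libraries. The libraries of each group lay close together and the groups did not overlap for either gene. FSTL1 fell by 39.0% (log2 fold change -0.71, SE 0.039, adjusted p = 1.00e-10) and NOG by 35.0% in mean normalized count (log2 fold change -0.62, SE 0.087, adjusted p = 1.56e-05).

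Of the type I receptors, ACVR1, a kinase for BMPs also known as ALK2, was the 1 gene called. Its log2 levels were 9.99, 10.10, 10.09, 10.00 and 9.99 in shPAR1 and 9.72, 9.67, 9.63, 9.53 and 9.80 in shCtrl libraries. The groups did not overlap (log2 fold change 0.37, SE 0.053, adjusted p = 2.20e-05). The TGF-beta kinase TGFBR1 had a log2 fold change of -0.00 (95% interval -0.13 to 0.13), the activin kinase ACVR1B of 0.04 (-0.07 to 0.15) and the BMP kinase BMPR1A of -0.10 (-0.23 to 0.02). BMPR1A passed the threshold with voom weights (-0.13, adjusted p = 0.0496).

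The type II receptors rose, with ACVR2B as the exception. TGFBR2, which binds TGF-beta first and recruits TGFBR1, had log2 levels of 11.58, 11.65, 11.70, 11.60 and 11.59 in shPAR1 and of 11.08, 11.11, 11.14, 11.10 and 11.05 in shCtrl libraries. BMPR2, its counterpart for BMPs, had log2 levels of 12.63, 12.29, 12.26, 12.45 and 12.56 in shPAR1 and of 12.07, 11.93, 11.95, 11.87 and 11.99 in shCtrl libraries. The groups did not overlap for either gene, and the rise was 44.4% in mean normalized count for TGFBR2 (log2 fold change 0.53, SE 0.039, adjusted p = 4.86e-09) and 39.7% for BMPR2 (log2 fold change 0.48, SE 0.063, adjusted p = 8.59e-06). ACVR2A, a receptor for activins and BMPs, had a log2 fold change of 0.46 (SE 0.066, adjusted p = 2.07e-05) and ACVR2B one of -0.04 (95% interval -0.19 to 0.12). ACVR2A shares 6.68% of its exon bases with ORC4 on the opposite strand. The 4 type II receptors summed to 161 ± 16 TPM in shPAR1 and 117 ± 5.8 TPM in shCtrl libraries (SD, n = 5), with TGFBR2 and BMPR2 at 47.4 and 45.7% of that sum in shPAR1 and 46.2% each in shCtrl libraries. With canonical transcript lengths their shares were 56.1 and 37.1% in shPAR1 and 54.9 and 37.6% in shCtrl libraries.

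TGFBR3 and BAMBI, which act beside the kinases, had larger log2 fold changes than the tested kinase receptors. TGFBR3, or betaglycan, presents TGF-beta2 to TGFBR2 and also binds inhibin. Its log2 levels were 9.23, 9.01, 9.07, 9.18 and 9.07 in shPAR1 and 8.21, 8.42, 8.50, 8.26 and 8.37 in shCtrl libraries. The groups were well apart (log2 fold change 0.76, SE 0.067, adjusted p = 5.41e-08). BAMBI is a transmembrane pseudoreceptor that resembles a type I receptor without the kinase and dampens TGF-beta and BMP signaling. It had log2 levels of 8.27, 8.41, 8.44, 8.44 and 8.42 in shPAR1 and of 6.35, 6.63, 6.57, 6.33 and 6.62 in shCtrl libraries. The lowest shPAR1 library was above the highest shCtrl library by a wide margin, and the mean normalized counts of 337 ± 16 and 89.9 ± 9.0 (SD, n = 5) correspond to a rise of 274% (log2 fold change 1.90, SE 0.083, adjusted p = 4.23e-12).

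BAMBI had the largest fold change of the 42 tested genes, and its promoter window is shown for that reason (RefSeq, GRCh38.p14, 250 bases before to 50 after the annotated start, chr10:28677271-28677570, plus strand, 5′ to 3′). Capitals mark matches on either strand to CAGAC (the core of the CAGA box that SMAD3 and SMAD4 bind), to GGCGCC (a GC-rich SMAD motif of BMP-responsive genes) and to the CCAAT box.
BAMBI: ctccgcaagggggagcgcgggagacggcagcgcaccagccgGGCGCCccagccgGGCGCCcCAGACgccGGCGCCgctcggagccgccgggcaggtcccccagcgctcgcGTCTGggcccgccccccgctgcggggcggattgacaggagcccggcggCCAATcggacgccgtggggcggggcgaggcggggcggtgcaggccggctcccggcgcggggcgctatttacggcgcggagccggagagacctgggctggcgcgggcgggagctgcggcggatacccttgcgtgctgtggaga
The window held 2 matches to the CAGA core, 3 to the GC-rich motif and 1 to the CCAAT box, and was 80.0% G and C. Of 35116 promoter windows of this length, 45.3% held the CAGA core, 19.2% the GC-rich motif and 34.6% the CCAAT box, counted on both strands. A window was found for 40 of the 46 member genes, and of their 77 windows 51.9% held the CAGA core, 23.4% the GC-rich motif and 35.1% the CCAAT box. The full palindrome GTCTAGAC stood in 0.202% of all windows and in that of 1 member, SMAD6. No motif overlapped another as searched, and a match is a description of these letters only.

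Receptor SMADs carry the signal to the nucleus, and 3 of 5 were lower in shPAR1 cells. SMAD3 had log2 levels of 13.09, 13.11, 13.12, 13.06 and 13.05 in shPAR1 and of 13.48, 13.52, 13.50, 13.55 and 13.48 in shCtrl libraries. SMAD2 had log2 levels of 10.45, 10.16, 10.29, 10.36 and 10.38 in shPAR1 and of 10.58, 10.54, 10.45, 10.58 and 10.55 in shCtrl libraries. The groups were apart for SMAD3 but touched for SMAD2, where shPAR1 library 1 reached the lowest shCtrl library. SMAD3 fell by 25.1% in mean normalized count (log2 fold change -0.42, SE 0.035, adjusted p = 3.40e-08) and SMAD2 by 13.6% (log2 fold change -0.21, SE 0.053, adjusted p = 0.00337).

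Of the BMP-branch SMADs, SMAD5 was the 1 gene called. SMAD5 had log2 levels of 11.22, 10.92, 11.01, 11.08 and 11.31 in shPAR1 and of 11.50, 11.42, 11.32, 11.38 and 11.48 in shCtrl libraries. The highest shPAR1 library lay just under the lowest shCtrl library (log2 fold change -0.31, SE 0.063, adjusted p = 0.000623). SMAD1 had log2 levels of 7.35, 7.51, 7.44, 7.52 and 7.72 in shPAR1 and of 7.58, 7.67, 7.45, 7.50 and 7.62 in shCtrl libraries. SMAD9 had log2 levels of 7.77, 7.61, 7.79, 7.85 and 7.90 in shPAR1 and of 7.84, 7.99, 7.83, 7.85 and 7.92 in shCtrl libraries. Both overlapped between groups, with log2 fold changes of -0.06 (95% interval -0.23 to 0.12) for SMAD1 and -0.10 (-0.25 to 0.05) for SMAD9. Summed over the 5 receptor SMADs, the level was 200 ± 17 TPM in shPAR1 and 267 ± 21 TPM in shCtrl libraries (SD, n = 5). SMAD5 shares 6.75% of its exon bases with SMAD5-AS1 on the opposite strand.

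The common mediator SMAD4 was present in all libraries at a mean of 4.13 TPM, with a log2 fold change of -0.01 (95% interval -0.17 to 0.15, adjusted p = 0.925). SMAD7, an inhibitory SMAD that recruits SMURF ligases to the receptors and is itself a target of the pathway, was higher by a log2 fold change of 0.30 (SE 0.094, adjusted p = 0.0163). Its log2 levels were 7.14 to 7.32 in shPAR1 and 6.79 to 7.15 in shCtrl libraries and overlapped. SMAD6, the inhibitor that acts mainly on the BMP branch, had a log2 fold change of -0.14 (95% interval -0.29 to 0.00, adjusted p = 0.113) and passed the threshold without shPAR1 library 2 (-0.19, adjusted p = 0.033).

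The amount and activity of SMADs is set by further proteins: SMURF1 and SMURF2 are ubiquitin ligases for SMADs and receptors, SKI and SKIL are corepressors that bind SMADs, and TGIF1 is a homeodomain corepressor of SMAD2 and SMAD3. SMURF2 had log2 levels of 9.51, 9.43, 9.69, 9.58 and 9.58 in shPAR1 and of 10.06, 9.93, 9.80, 9.97 and 9.90 in shCtrl libraries. TGIF1 had log2 levels of 11.59, 11.41, 11.42, 11.57 and 11.54 in shPAR1 and of 11.75, 11.70, 11.72, 11.75 and 11.76 in shCtrl libraries. Both were lower in each shPAR1 library than in any shCtrl library, SMURF2 with a log2 fold change of -0.37 (SE 0.058, adjusted p = 5.02e-05) and TGIF1 with one of -0.23 (SE 0.043, adjusted p = 0.000270). SMURF1 was also lower without overlap (log2 fold change -0.21, SE 0.044, adjusted p = 0.000967), and it shares 11.7% of its exon bases with TRRAP on the opposite strand. SKI (log2 fold change 0.09, 95% interval -0.01 to 0.20) and SKIL (-0.09, -0.26 to 0.08) were not called.

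ID proteins are helix-loop-helix factors that lack a DNA-binding region and hold bHLH transcription factors inactive. ID1, ID2 and ID3 were lower in shPAR1 cells. ID1 had log2 levels of 10.84, 11.00, 11.02, 10.90 and 11.02 in shPAR1 and of 11.48, 11.40, 11.47, 11.62 and 11.43 in shCtrl libraries. ID2 had log2 levels of 7.41, 7.22, 7.47, 7.37 and 7.60 in shPAR1 and of 7.87, 7.89, 7.84, 7.88 and 8.01 in shCtrl libraries. ID3 had log2 levels of 10.42, 10.60, 10.68, 10.59 and 10.61 in shPAR1 and of 10.69, 10.76, 10.85, 10.86 and 10.78 in shCtrl libraries. No group overlapped, although the highest shPAR1 library of ID3 lay just under the lowest shCtrl library. In mean normalized count, ID1 fell by 30.5% (log2 fold change -0.52, SE 0.050, adjusted p = 1.41e-07), ID2 by 28.2% (log2 fold change -0.48, SE 0.079, adjusted p = 8.38e-05) and ID3 by 13.4% (log2 fold change -0.21, SE 0.051, adjusted p = 0.00314). ID2 shares 6.55% of its exon bases with ID2-AS1 on the opposite strand.

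ID4 was expressed at a low level and spread widely. Its log2 levels were 4.55, 3.60, 3.49, 3.26 and 4.68 in shPAR1 and 4.33, 4.38, 4.10, 4.47 and 4.47 in shCtrl libraries. The shPAR1 libraries fell on both sides of all shCtrl libraries (log2 fold change -0.44, 95% interval -1.01 to 0.14, adjusted p = 0.218), and the gene passed the threshold with voom weights (-0.68, adjusted p = 0.038). Per length, the 4 ID genes summed to 447 ± 24 TPM in shPAR1 and 614 ± 73 TPM in shCtrl libraries (SD, n = 5). ID1 held 59.3 ± 0.71% of that sum in shPAR1 and 64.2 ± 1.2% in shCtrl libraries, and ID3 37.7 ± 0.82% and 32.7 ± 1.1%.

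The promoter windows of the 3 ID genes that fell are shown because these genes moved together (RefSeq, GRCh38.p14, 250 bases before to 50 after the start, 5′ to 3′ on the gene's strand). ID1 lies at chr20:31605039-31605338 on the plus strand, ID2 at chr2:8681806-8682105 on the plus strand and ID3 at chr1:23559452-23559751 on the minus strand, and capitals mark matches to the same 3 motifs.
ID1: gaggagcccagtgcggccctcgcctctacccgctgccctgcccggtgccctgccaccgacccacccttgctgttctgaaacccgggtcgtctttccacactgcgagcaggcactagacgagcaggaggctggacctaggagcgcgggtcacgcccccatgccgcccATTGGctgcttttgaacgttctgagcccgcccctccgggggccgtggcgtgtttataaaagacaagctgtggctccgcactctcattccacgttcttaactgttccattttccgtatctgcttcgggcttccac
ID2: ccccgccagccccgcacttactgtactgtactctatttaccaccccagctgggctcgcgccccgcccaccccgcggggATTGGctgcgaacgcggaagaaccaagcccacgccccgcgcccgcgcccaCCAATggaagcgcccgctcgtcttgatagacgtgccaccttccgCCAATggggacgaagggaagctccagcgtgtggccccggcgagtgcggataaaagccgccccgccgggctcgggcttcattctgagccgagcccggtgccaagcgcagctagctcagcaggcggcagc
ID3: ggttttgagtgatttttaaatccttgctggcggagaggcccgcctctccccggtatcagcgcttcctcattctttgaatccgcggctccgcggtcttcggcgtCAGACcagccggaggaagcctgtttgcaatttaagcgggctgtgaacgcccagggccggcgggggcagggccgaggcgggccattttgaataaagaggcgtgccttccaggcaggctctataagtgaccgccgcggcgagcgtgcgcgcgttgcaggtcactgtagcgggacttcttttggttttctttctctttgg
ID1 held 1 match to the CCAAT box, ID2 held 3, and ID3 held 1 match to the CAGA core. None of the 3 windows held the GC-rich motif or the palindrome, which says only that these letters are not in this window.

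**Figure D3:**
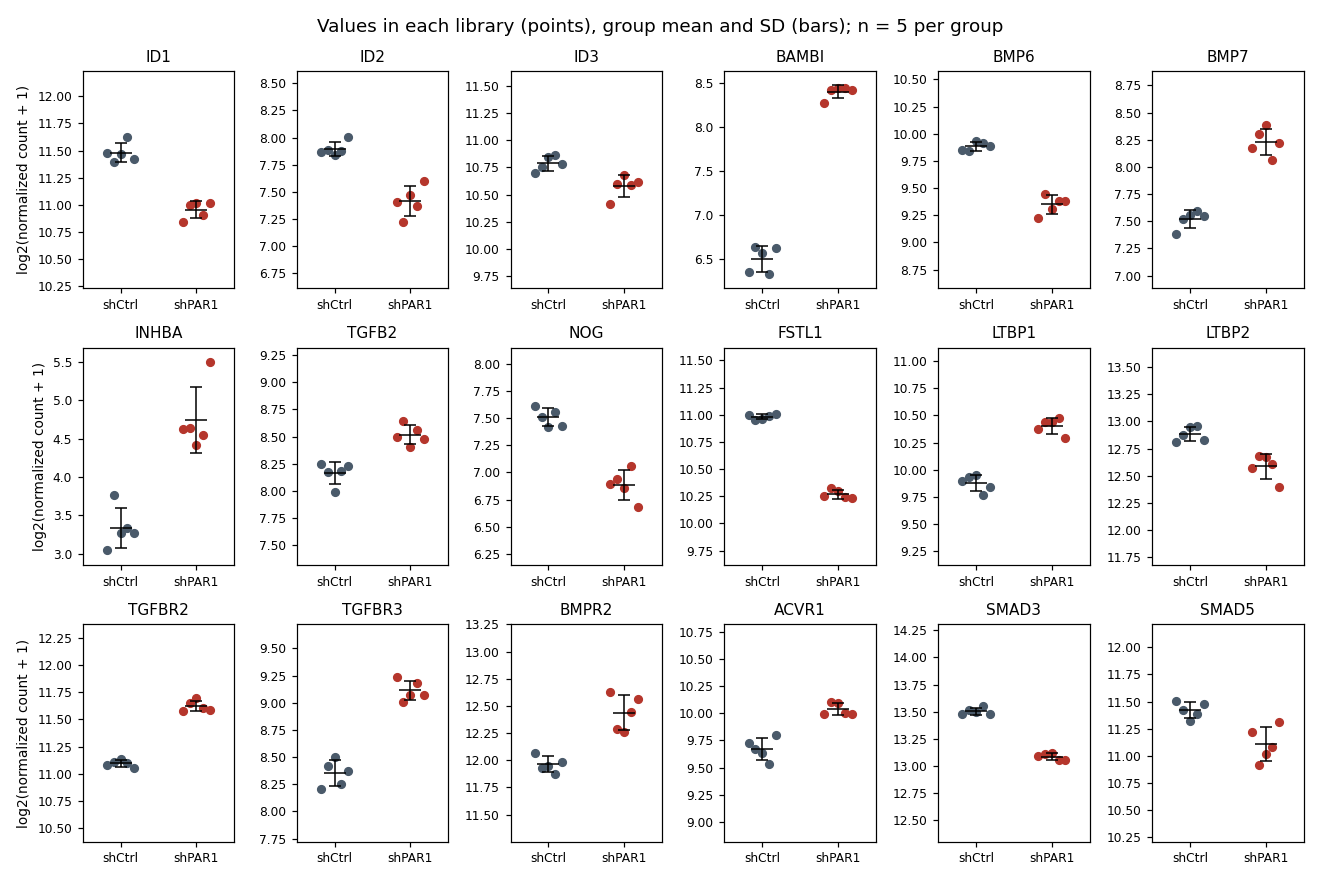
Log2 level (y axes, log2(normalized count + 1), each panel on its own range) of 18 genes in each library, shCtrl in grey and shPAR1 in red on the x axis, with the group mean and SD as bars (n = 5 per group). All 18 are among the 22 of 42 tested genes whose groups did not overlap, so the lack of overlap in every panel follows from the choice of genes. The gap is widest for BAMBI.

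Related members were then compared within each library, which removes the library's scaling. For 14 pairs, the log2 ratio was tested between groups with an exact two-sided permutation test, whose smallest p is 0.00794 with 5 libraries against 5, adjusted to 0.0185 over the 14 pairs. Of these, 12 passed an adjusted p of 0.05, and 6 of them without overlap between groups. Both counts include INHBA over INHBB. The share that would pass among pairs of other genes was not computed, while 40.9% of all tested genes were called. A ratio can also differ where only 1 of its genes was called, as with TGFBR1 (log2 fold change -0.00) and TGFBR2 (0.53). TGFBR1 fell against TGFBR2: the log2 ratio was -1.51, -1.78, -1.71, -1.65 and -1.44 in shPAR1 and -0.92, -1.13, -1.16, -1.25 and -0.97 in shCtrl libraries (difference -0.53, adjusted p = 0.0185, exact permutation test). BMPR1A fell likewise against BMPR2, with ratios of -2.11, -2.13, -1.97, -2.10 and -2.08 in shPAR1 and of -1.57, -1.41, -1.54, -1.44 and -1.53 in shCtrl libraries (difference -0.58, adjusted p = 0.0185, exact permutation test). Ratios with the type I kinase genes ACVR1 and ACVR1B were not computed.

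The other pairs without overlap were ACVR2A over ACVR2B (difference in log2 ratio 0.49), LTBP1 over LTBP3 (0.39), INHBA over INHBB (1.61) and ID1 over ID3 (-0.32), each with an adjusted p of 0.0185 by the exact permutation test. Since INHBA entered the tested genes through the shPAR1 libraries, where it is high, the ratio over INHBB is a description and its p supports nothing. ID1 and ID3 changed unequally in these libraries, while ID1 against ID2 differed by -0.04 (log2 ratio 3.54 ± 0.14 in shPAR1 and 3.58 ± 0.13 in shCtrl libraries, adjusted p = 0.587, exact permutation test). The inhibitory pair SMAD6 over SMAD7 differed by -0.44 (adjusted p = 0.0317, exact permutation test). Smaller differences passed for TGFB1 over TGFB2 (-0.24), TGFB1 over TGFB3 (-0.19), SMAD2 over SMAD3 (0.20), SMAD1 over SMAD5 (0.26) and SMURF1 over SMURF2 (0.17), and SKI over SKIL did not pass (0.19, adjusted p = 0.282, exact permutation test). The 6 pairs without overlap passed with any single library left out, where INHBA over INHBB again counts as a description only. Their passing was fixed in advance, since groups that do not overlap stay apart when a library is removed, and it adds no support. Each of the 6 pairs whose groups overlapped failed without at least 1 library, and between 6 and 12 pairs passed in all.

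Other genes of the pathway were read from 7 lists of textbook components and targets, also chosen with earlier results of these data known. The lists held 141 genes that are not members, 117 of them listed. Of the 96 tested, 23 were higher and 29 lower (54.2%, against 40.9% over all genes). Among the other ligands, 2 of 8 tested were higher and 1 lower. GDF15, a stress-induced member of the superfamily, had log2 levels of 10.93 to 11.27 in shPAR1 and 8.88 to 9.29 in shCtrl libraries (log2 fold change 2.02, adjusted p = 6.16e-13), and GDF11 rose slightly (0.15, adjusted p = 0.0297). Of the other receptors and co-receptors, 3 of 6 were higher and 2 lower, among them the TGF-beta-binding co-receptors NRP1 (log2 fold change 0.66) and ENG, or endoglin (0.49), which rose, and NEO1, a receptor for the BMP co-receptor RGM proteins (-0.86), and CD109, a TGF-beta co-receptor that dampens signaling (-0.39), which fell. Of 4 other antagonists, CHRD, which encodes chordin (0.68), and FSTL3, an activin-binding follistatin-like protein (0.35), rose.

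Proteins that free or activate the ligand were called for 7 of 12 (58.3%, against 40.9% over all genes), with 3 higher and 4 lower. The alpha-v integrin genes ITGB5 (log2 fold change 0.48) and ITGAV (0.25) rose, whereas THBS1, which encodes thrombospondin-1 (-1.29), the protease gene PLAU (-1.04) and the proprotein convertase gene PCSK6 (-0.76) fell. The intracellular regulators were called for 12 of 27, a share near that of all genes, with 7 higher and 5 lower. CREBBP (0.29), EP300 (0.26), both acetyltransferase coactivators, and LEMD3, an inner nuclear membrane protein that binds receptor SMADs (0.27), rose in log2 fold change. PMEPA1, an inhibitor of SMAD signaling that TGF-beta itself induces (-0.68), FKBP1A, which holds the type I receptor inactive (-0.53), and ZFYVE16, an endosomal SMAD-binding protein (-0.32), fell.

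Genes known to be induced by TGF-beta were called for 21 of 32 (65.6%, against 40.9% over all genes), 6 higher and 15 lower. Over all genes, 19% were called as higher and 21.9% as lower. The median log2 fold change of the list was -0.17 beside -0.00 over all tested genes. Those that fell most were TPM1, a tropomyosin gene (-1.67), CDKN1A, which encodes the cell cycle inhibitor p21 (-1.36), and THBS1. Those that rose most were the matrix genes COL3A1 (5.28) and FN1 (3.07) and the small GTPase gene RHOB (0.82). COL3A1 is also on the fibroblast marker list, where COL1A1 fell (-0.43) and PDGFRB rose (0.37).

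Genes known to be induced by BMP were called for 10 of 17, 3 higher and 7 lower. Without the members of the set, 1 of 10 was higher and 4 lower, a share near the 40.9% called over all genes. MSX2, a homeobox gene, had log2 levels of 8.60 to 8.93 in shPAR1 and 9.37 to 9.43 in shCtrl libraries (log2 fold change -0.65, adjusted p = 4.22e-07), next to ID1 and ID2 among those with a mean normalized count of at least 50 that fell most. HEY1, at a mean normalized count of 41.1 and outside the naming rule, fell further (-1.55, adjusted p = 1.48e-05). RUNX2, the osteoblast transcription factor gene, rose (0.57, adjusted p = 1.30e-06), beside BAMBI and SMAD7. BAMBI and the ID genes stand on the same list of BMP-induced genes. BAMBI was higher, and ID1, ID2 and ID3 were lower, than the shCtrl mean in every shPAR1 library. This follows from groups that did not overlap and adds nothing to the calls. The shPAR1 libraries of ID4 lay on both sides of the shCtrl mean.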

How the data were processed

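Total RNA of 5 shPAR1 and 5 shCtrl PANC-1 libraries was prepared with the KAPA RNA HyperPrep kit with RiboErase and sequenced as single reads. According to the submitters' processing notes, reads were checked with FastQC 0.11.5, trimmed with Trimmomatic 0.36, aligned to GRCh38 with HISAT2 2.1.0 and counted with HTSeq. The authors deposited log2 values, which are the log2 of the count divided by a DESeq2 size factor, plus 1. Neither the annotation release nor the strand setting was stated (not given in the sources used here). Counts were recovered from these values: 100% of them fell within 0.01 of a whole number, 27884 genes were listed, and totals were 15335264 to 22876248 (shPAR1) and 18317098 to 25369056 (shCtrl). TPM was computed from the recovered counts with GENCODE 44 exon lengths of 27361 matched Ensembl IDs. No 2 libraries were identical.

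Groups came from the sample labels. The deposited log2 values of genes that reached a normalized count of 10 in 5 or more libraries were fitted by group with limma 3.58.1 (R 4.3.3, trended prior), a scale that understates changes of low genes, with Benjamini-Hochberg adjustment over 17518 genes and a threshold of 0.05. The procedure was tested on simulated data. Ratios of pairs were tested with scipy 1.17.1 by exact permutation and Benjamini-Hochberg adjustment over 14 pairs. The members, lists, pairs and alternatives were chosen with earlier results of these data known. All tested members were named. Values in every library were given for receptor SMADs and ID genes and, in each other role, for up to 2 called members with the largest change and no overlap. From the other pathway lists, up to 3 called genes per direction with a mean normalized count of at least 50 were named. Alternatives were voom with sample quality weights on the recovered counts, no or a stricter count minimum, a pseudocount of 5, total count scaling, size factors without mitochondrial genes and leaving out each library.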

Additional observations from a re-analysis of the deposited data

Results flagged for a closer look

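Of 84 groups of 5 libraries examined over the 42 tested genes, 3 held a library whose gap to the nearest other exceeded the 95% critical value of Dixon's test (0.71 of the range), where chance gives about 5% of groups. INHBA was at a log2 level of 5.50 in shPAR1 library 5, with the other shPAR1 libraries at 4.42 to 4.64. SMAD7 was at a log2 level of 7.14 in shPAR1 library 2, with the others at 7.28 to 7.32. BAMBI was at a log2 level of 8.27 in shPAR1 library 1, with the others at 8.41 to 8.44. The calls of these 3 genes held with that library left out. For INHBA this is a description only, since it was tested because of its level in the shPAR1 libraries.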

How the results depend on the processing

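No paired analysis was possible because the groups share no replicate numbers. No called member changed sign under any of the 16 alternatives that gave it a value. The stricter count minimum gave none for INHBA, INHBE and ID4. Among those not called, the log2 fold changes of TGFBR1 (-0.0438 to 0.0339), BMP1 (-0.0426 to 0.0961) and SMAD4 (-0.0638 to 0.0495) lay on both sides of 0 as single libraries were left out, and TGFBR1 was at 0.0057 with total count scaling. Of the 26 called members, 24 were called in every alternative in which they were tested, the exceptions being INHBB and TGFB3, and 12 of the 16 not called were never called where tested, the exceptions being BMPR1A, LTBP3, SMAD6 and ID4. INHBA is among the 24, and its call is a description only, because it was tested through its level in the shPAR1 libraries. The number of members called ranged from 11 to 13 higher and from 13 to 16 lower. Voom weights gave 2 called type I receptors in place of 1. Leaving out single libraries gave 1 to 2 called TGF-beta ligands, 1 to 2 activin and inhibin subunits, 1 to 2 common and inhibitory SMADs, and 6 to 12 pairs past the threshold, where 4 libraries against 5 also leave fewer assignments to permute. The number of pairs fell to 7 without shPAR1 library 1 and to 6 without shPAR1 library 4 or 5 or shCtrl library 9. In shPAR1 library 1 the deviation from the group mean rose with exon length (Spearman rho 0.43 over 10732 genes, a description across genes), against -0.28 to 0.11 in the others. Depth limits INHBA, INHBE, ID4 and BMPR1B, and fold changes of genes this low are uncertain.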
